A study of Homo sapiens with 12 samples.

Results

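Gene expression was compared between breast cancer cells carrying a short hairpin RNA (shRNA) against HMGA2 and control cells of the same subline. The comparison used 6 of the 12 arrays of the series, 3 labelled shHMGA2 and 3 labelled control, chosen by their sample titles. It covered the 18417 genes that had at least 1 probe set assigned to a single gene symbol, out of 33297 probe sets on the array. The cells were the 1833 subline of MDA-MB-231, a human triple-negative breast cancer line, and 1833 was derived from it for its growth in bone. All 6 arrays came from cells grown in DMEM with 10% fetal bovine serum and antibiotics. The shRNA was carried in the lentiviral vector pLKO.1, and these cells were kept in 0.5 µg/ml puromycin. No vector, shRNA or drug is given for the control cells, so infection and selection may differ between the groups together with HMGA2. The labels call the arrays biological replicates and do not name separate cultures or infections or say how many hairpins were used. The p-values therefore measure only the spread between these arrays, which may be technical. The other 6 arrays carried inducible Tet1 or HOXA9 constructs. Their cells were kept in 0.5 µg/ml puromycin and in a further drug, G418, which is not listed for the control or shHMGA2 cells. These 6 arrays were used for 1 alternative fit and for a few levels set side by side.

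HMGA2 is a small chromatin protein with AT-hook motifs that bind the minor groove of AT-rich DNA. It bends DNA, helps other factors assemble at promoters and enhancers, and is made in embryonic tissue and again in many tumours. The let-7 microRNAs repress its transcript, and LIN28 proteins block the maturation of let-7. In breast cancer cells HMGA2 is linked to invasion and metastasis, and the series title places TET1, which oxidises 5-methylcytosine in DNA, after HMGA2 in a pathway.

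The targeted transcript was examined first. The annotation lists HMGA2 only together with ELAC2, on 1 shared probe set. This probe set measured 9.55, 9.65 and 9.48 on the log2 scale in the control arrays and 8.93, 9.02 and 8.47 in shHMGA2, so that every shHMGA2 array lay below every control array. The difference was -0.75 (SE 0.14, 95% confidence interval -1.08 to -0.43), or 1.69-fold lower, with a limma adjusted p of 0.016 over all probe sets. Without control replicate 2 the difference was -0.71 and its adjusted p was 0.055, which did not pass. ELAC2, a nuclease that trims tRNA precursors, had a probe set of its own, at a mean of 10.72 in control and 10.86 in shHMGA2 (adjusted p = 0.15). The antisense transcript HMGA2-AS1 was at 6.54 and 6.5 (adjusted p = 0.72). Neither passed the test, although the ELAC2 values of the groups did not overlap.

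TET1 was higher in every shHMGA2 array. It measured 6.59, 6.45 and 6.66 in control and 8.72, 8.92 and 9.29 in shHMGA2, a log2 difference of 2.41 (SE 0.13, adjusted p = 2.2e-05 over all genes). Among the 17 measured writers and erasers of DNA methylation, TET1 was the only member at least 2-fold higher. IDH2, a mitochondrial isocitrate dehydrogenase that supplies the cofactor of TET enzymes, rose by 0.57 (SE 0.08, adjusted p = 0.002). GADD45A and GADD45B fell by 0.4 and 0.22, and these calls were lost in 3 and 7 of the 14 alternative fits. The other 13 members did not pass the test.

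Differences between shHMGA2 and control were widespread but mostly small. At an adjusted p under 0.05, 4274 genes (23.2%) differed, 2313 higher (12.6%) and 1961 lower (10.6%). Counts in gene lists are to be read beside the 12.6% and the 10.6%. Leaving out control replicate 3, shHMGA2 replicate 2 or shHMGA2 replicate 3 reduced the lower count to 1269, 1266 and 1274. With a limit of 2-fold added, 206 genes were higher (1.12% of those tested) and 64 were lower (0.348%). The largest rises were far bigger than the largest falls: 50 genes rose and 5 fell by at least 4-fold, 20 rose and 0 fell by at least 8-fold, and 8 rose by at least 16-fold. The 3 control and 3 shHMGA2 values did not overlap in 206 of the 206 rises and 63 of the 64 falls. Over all genes 7457 (40.5%) had groups that did not overlap. Among called genes of at least 1.5-fold, 526 of 526 rises and 352 of 354 falls did not overlap. In called genes named below, groups that lie apart therefore add no support to the call.

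The rises started from low levels and the falls from high ones. The 206 genes that rose at least 2-fold had a median of 6.57 in control and 8.42 in shHMGA2. The 64 genes that fell had medians of 8.88 and 7.56, against 7.84 and 7.87 over all genes. In 51 of the 206 rises the control mean lay under 6.02, the 30th percentile of all probe sets on these arrays. The table holds no detection calls, so such a control level is not known to lie above background. The fold is then that of the measured values, and it gives no order among these genes.

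**Figure D1:**
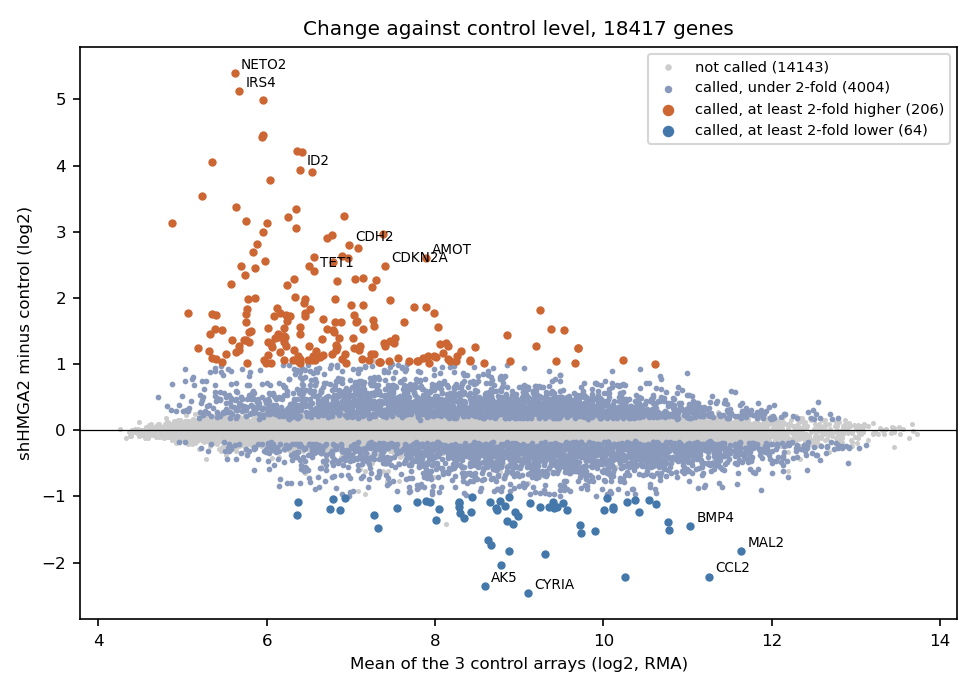
Log2 difference between shHMGA2 and control against the mean log2 level of the 3 control arrays, 1 point per gene, for 18417 genes. The 206 genes called at least 2-fold higher (orange) lie mainly at low control levels and reach a difference of 5.4, and the 64 called at least 2-fold lower (dark blue) reach -2.46.

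The largest rises began at the dim end of the array. The 25 largest rises and 25 largest falls were taken among genes whose groups did not overlap, so the lack of overlap in them is no result. NETO2, a partner protein of kainate-type glutamate receptors, measured 5.65, 5.61 and 5.61 in control and 10.82, 10.91 and 11.34 in shHMGA2 (log2 difference 5.4, SE 0.12, adjusted p = 2.4e-07). IRS4, a docking protein below the insulin receptor, measured 5.58, 5.78 and 5.65 and then 10.54, 10.79 and 11.08 (5.13, SE 0.12, adjusted p = 2.4e-07). CA2, which interconverts carbon dioxide and bicarbonate, rose by 4.99. In each of these genes the control arrays lay near the dim end of the array and the shHMGA2 arrays far above it. INA, an intermediate filament of neurons, measured 6.36, 6.42 and 6.31 in control and 10.45, 10.4 and 10.9 in shHMGA2. ZCCHC12, a zinc finger gene of the X chromosome, rose by 4.2, and GPR50, a melatonin-receptor relative on the same chromosome, by 3.35. SLC6A15, a neuronal transporter of neutral amino acids, rose by 3.54, and UCHL1, a deubiquitinase abundant in neurons, by 2.91. NRN1 (neuritin), SEPTIN3, a septin of nerve terminals, and EPHA7, an ephrin receptor, rose by 3.22, 2.95 and 3.16.

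Genes of the LIN28 and let-7 axis and several regulators of transcription stood among the same rises. LIN28B, which blocks let-7 maturation, measured 4.84, 4.89 and 4.92 in control and 7.69, 7.61 and 8.77 in shHMGA2 (log2 difference 3.14, SE 0.26, adjusted p = 0.00016). The third shHMGA2 array was set well apart from the other two. IGF2BP1, an oncofetal RNA-binding protein and let-7 target, measured 6.7, 6.58 and 6.33 and then 10.25, 10.38 and 10.71 (3.91, SE 0.13). Of 16 measured genes of this axis, 5 rose and 0 fell, with a median difference of 0.02 against -0.03 over all genes. TLE4, a corepressor of the Groucho family, rose by 4.44, and ID2, an inhibitor of basic helix-loop-helix factors, by 3.94, from 6.44, 6.12 and 6.64 to 10.24, 10.18 and 10.62. HEY1, a repressor induced by Notch, measured 7.04, 6.84 and 6.89 in control and 10.04, 10.02 and 10.43 in shHMGA2. H2BC7 and H4C5, histone genes of the chromosome 6 cluster, rose by 4.06 and 3.14. KLHL9, a subunit of a ubiquitin ligase, rose by 3.78, from 6, 6.12 and 6.01 to 9.59, 9.7 and 10.18.

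The rest of the 25 largest rises held membrane, matrix and lipid genes. POPDC1, a membrane protein of muscle, rose by 3.37, and TMEM47, a protein of cell junctions, by 2.96. NID1, a basement membrane glycoprotein, measured 5.9, 6 and 5.95 in control and 8.73, 8.82 and 9.29 in shHMGA2. ELOVL2, an elongase of long polyunsaturated fatty acids, rose by 2.82 and the zinc finger gene ZNF280B by 3.06.

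**Figure D2:**
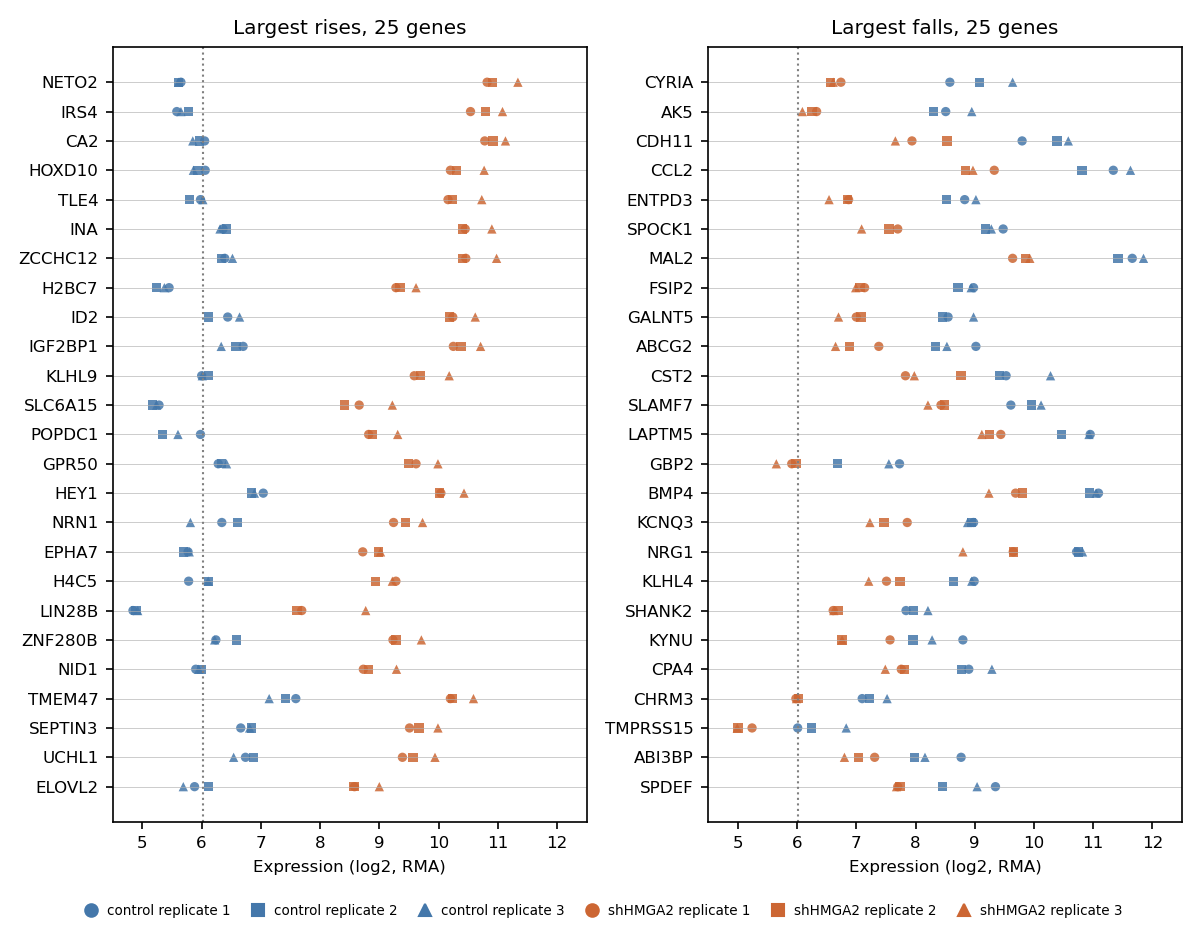
Log2 expression in each of the 6 arrays for the 25 genes with the largest rises (left) and the 25 with the largest falls (right), blue for control and orange for shHMGA2, with 1 marker shape per replicate number. The dotted line marks 6.02, the 30th percentile of all probe sets, and the 50 genes were chosen among those whose groups do not overlap.

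The rises were not equally large in the 3 shHMGA2 arrays. Replicate 3 was the farthest above control in 190 of the 206 rises (92.2%), replicate 1 in 7 and replicate 2 in 9. Over all 18417 genes replicate 3 was the highest of the 3 arrays in 39.3%. The median distance from the control mean was 1.3, 1.37 and 1.71 on the log2 scale in replicates 1, 2 and 3. On the linear scale, each array's excess over the control mean was taken as a share of its mean over the 3 arrays. The median share was 0.853, 0.897 and 1.254 over the 206 rises, and 0.842, 0.897 and 1.254 over the 50 rises of at least 4-fold. The middle quartiles of the share in replicate 3 were 1.199 and 1.314 over the 206 rises. The 50 genes are among the 206, and smaller rises were not measured in this way.

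A few rises did not follow that order. In 16 of the 206 another array was farther from control than replicate 3, and these were chosen for naming after their values were seen. IL1A, an inflammatory cytokine, was 2.18, 1.316 and 2.065 above the control mean in replicates 1, 2 and 3. H4C5 was 3.277, 2.933 and 3.215 above, and its neighbour H4C4 2.096, 1.874 and 2.047. TBX18, a T-box factor, was 2.323, 2.198 and 2.314 above, and the microRNA gene MIR218-1 was 1.447, 1.598 and 1.498 above. In these genes replicate 3 did not stand above the other arrays.

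The falls showed a similar order. Replicate 3 was the farthest below control in 47 of the 64 falls (73.4%), against 7 for replicate 1 and 10 for replicate 2. The median distances were -1.07, -1.18 and -1.43. Replicate 3 was the lowest of the 3 arrays in 36.2% of all genes. It also correlated least with the control arrays over all probe sets, at 0.9865 to 0.9874, against 0.9906 to 0.9918 for replicates 1 and 2. Within groups the correlations were 0.9964 to 0.9971 (control) and 0.9962 to 0.9977 (shHMGA2).

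**Figure D3:**
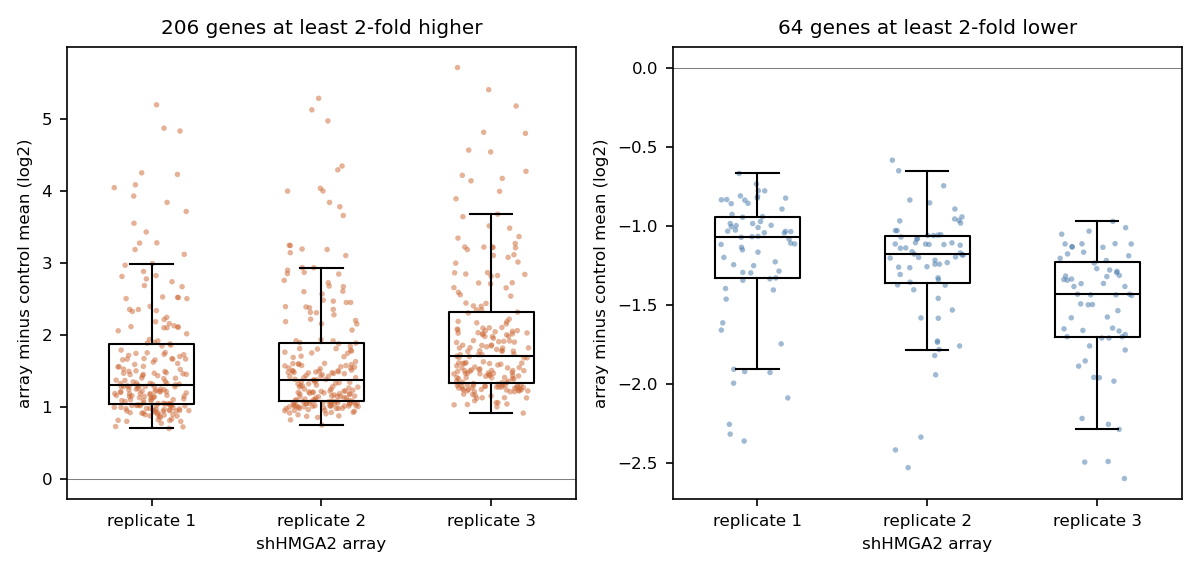
Distance of each shHMGA2 array from the control mean on the log2 scale, for the 206 genes called at least 2-fold higher (left) and the 64 called at least 2-fold lower (right). Points are genes, boxes span the quartiles with the median as a line, and replicate 3 has the largest median in both panels (1.71 and -1.43).

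Markers of another cell line were measured beside the rises. HEK293 is a line from human embryonic kidney with neural traits that is widely used to package lentiviral vectors. Of 14 listed HEK293 markers, 10 were higher in shHMGA2 and 0 lower, and 8 were at least 2-fold higher. The median difference was 1.41, against -0.03 over all genes. The mean level over the 14 markers was 6.36 to 6.47 in the control arrays and 8.12, 8.23 and 8.48 in shHMGA2 replicates 1, 2 and 3. IRS4, HOXD10, INA, IGF2BP1 and LIN28B carried the largest differences, followed by HOXD11 (1.83), NEFM (1.65), NEFL (1.17), CITED1 (0.54) and WT1 (0.25, a call lost in 10 alternative fits). The kidney factors PAX2 and LHX1, with CDH6 and TFAP2B, did not pass, at differences of -0.09, 0.1, -0.12 and -0.11. These 4 were at 5.48 to 6.84 in shHMGA2. This list was written with earlier results of these data in view and is no independent evidence.

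MDA-MB-231 markers were high in both groups. All 11 measured members had control means between 8.33 (TGFBI) and 13.21 (ANXA1), and vimentin (VIM) was at 12.84 in control and 12.68 in shHMGA2. EGFR, MET, AXL, CAV1 and CD44 were lower in shHMGA2, by 0.45, 0.41, 0.4, 0.26 and 0.25 on the log2 scale. The count of 5 became 1 to 3 on leaving out control replicate 1, 2 or 3 or shHMGA2 replicate 3, being 3, 2, 1 and 2 in that order. The mean level of the list was 11.7 to 11.74 in control and 11.57, 11.51 and 11.34 in shHMGA2. The hormone receptors ESR1 and PGR, and CDH1 (E-cadherin), all known to be low in this line, were at 6.05, 5.53 and 5.66 in control and at 5.95, 5.54 and 5.82 in shHMGA2, with no call. The part of RNA from another line in the rises was not tested. In bulk RNA a smaller share of cells of a type and less RNA per cell cannot be told apart.

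Genes of chromosome band 9p21, which MDA-MB-231 is known to lack around CDKN2A, were read next. CDKN2A, the locus of the cell-cycle inhibitors p16 and p14ARF, measured 7.1, 7.59 and 7.52 in control and 9.64, 9.79 and 10.22 in shHMGA2 (log2 difference 2.48, SE 0.17, adjusted p = 5.1e-05). MTAP, a methionine salvage enzyme beside it, measured 6.13, 6.33 and 6.4 and then 7.84, 7.97 and 8.2 (1.72, SE 0.1, adjusted p = 3.1e-05). CDKN2B rose by 0.56. Every shHMGA2 array lay above every control array in all of them. KLHL9 (3.78), FOCAD (1.32) and MLLT3 (0.65) rose on one side of the locus, while the 6 interferon genes there lay between 4.65 (IFNE) and 5.47 (IFNA8) in every array. On the other side ELAVL2 rose by 0.46, while DMRTA1 (-0.02), TUSC1 (-0.11), PLAA (0.08) and TEK (0.01) did not pass. In all, 9 of 21 measured genes of the band were higher and 1, LINGO2, was lower. The calls of CAAP1 and IFT74 were lost in 7 and 9 of the 14 alternative fits. That of LINGO2 was lost in 3 of 13, and the fit without dim genes did not test it. The source of this signal was not tested.

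Homeobox genes of 3 HOX clusters rose. HOX genes set position along the body axis and are switched on in order along each cluster. In the HOXB cluster 9 of 10 genes were higher and HOXB1 was not called. HOXB6 measured 6.8, 6.62 and 6.74 in control and 8.12, 8.18 and 8.45 in shHMGA2 (1.53, SE 0.09, adjusted p = 3.1e-05). HOXB9, already the brightest of the cluster in control, went from 9.5, 9.44 and 9.65 to 10.85, 11 and 11.31 (1.52, SE 0.11). HOXB13 and HOXB5 both rose by 0.91, and HOXB3 and HOXB4, at 0.55 and 0.4, lost their calls in 6 and 4 alternative fits. In the HOXC cluster HOXC9 rose by 1.41, HOXC10 by 1.27 and HOXC8 by 0.38, the last lost in 5 alternative fits, and the other 4 of 7 did not pass.

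The HOXD cluster held the largest single change of this family. HOXD10 measured 6.06, 5.94 and 5.86 in control and 10.2, 10.3 and 10.77 in shHMGA2 (4.47, SE 0.14, adjusted p = 8.2e-07). HOXD11, HOXD13 and HOXD9 rose by 1.83, 1.66 and 0.42. HOXD12, which lies between HOXD11 and HOXD13, HOXD8 and HOXD1, HOXD3 and HOXD4 did not pass. HOXA2, the only HOXA gene read alone by a probe set, rose by 0.98. Of 15 homeobox factors of the TALE class, which includes partners of HOX proteins, 4 were higher (26.7%) and 2 lower (13.3%). In this class MEIS1 rose by 0.63 and TGIF1 fell by 0.38. The 4 became 1 without control replicate 3 or shHMGA2 replicate 2. It was 2 with the replicate number as a block, and without control replicate 1 or shHMGA2 replicate 3. HOXD10 and HOXD11 were also in the HEK293 list.

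**Figure D4:**
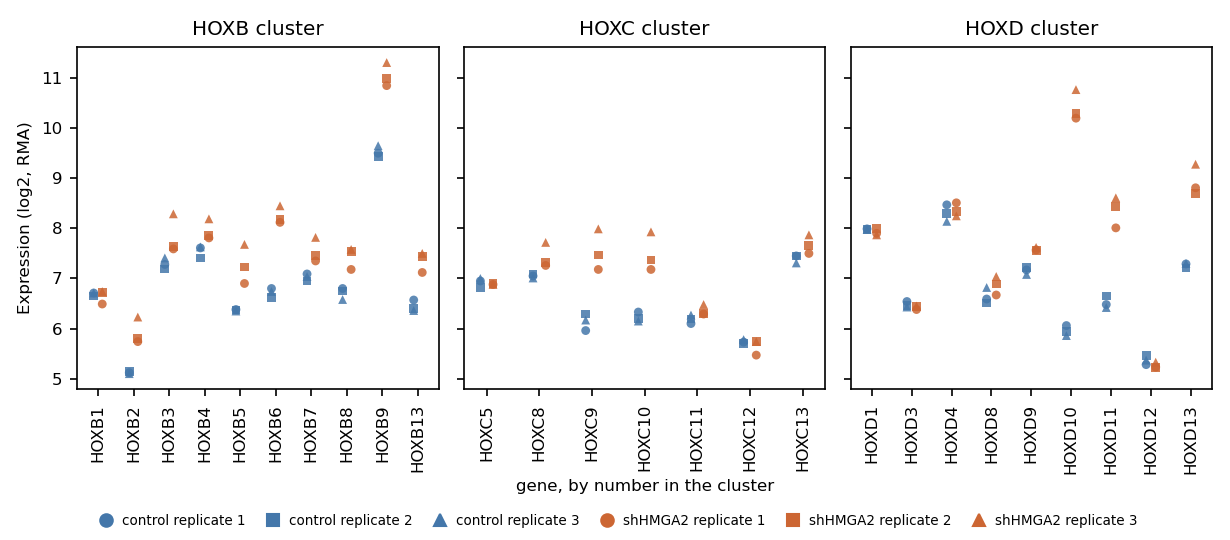
Log2 expression of the measured HOXB, HOXC and HOXD genes in the 3 control (blue) and 3 shHMGA2 (orange) arrays, in the order of their numbers. HOXD10 rises from about the dim level of the arrays to above 10, whereas the groups lie close together in HOXD12 and HOXB1.

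Some neuronal genes rose. Of 40 measured, 11 were higher (27.5%) and 3 lower (7.5%), against 12.6% and 10.6% of all genes. At least 2-fold rises made up 8 of the 11. The median of the list was 0.01, and 19 of the 40 had control means under the 30th percentile. Besides NETO2, INA, SLC6A15 and UCHL1, the neurofilament genes NEFM and NEFL rose, NEFM from 6.25, 6.32 and 6.16 to 7.76, 7.87 and 8.06. The cell adhesion molecules NCAM1 and L1CAM went opposite ways, NCAM1 by 1.06 and L1CAM by -0.75. Neither NCAM1 nor L1CAM had overlapping groups.

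Cell adhesion genes of the mesenchymal state did not move together. N-cadherin (CDH2) measured 6.94, 7.1 and 6.9 in control and 9.49, 9.65 and 10.19 in shHMGA2 (2.8, SE 0.16, adjusted p = 2.5e-05). Cadherin-11 (CDH11), a cadherin of osteoblasts and mesenchyme, measured 9.8, 10.39 and 10.58 and then 7.94, 8.53 and 7.66 (-2.22, SE 0.24, adjusted p = 0.00062). Neither gene had overlapping groups. TCF4 rose by 1.28, TWIST1 by 0.31 and S100A4 fell by 1.18. Of 24 mesenchymal genes and transition factors, 4 were higher (16.7%) and 6 lower (25%), against 12.6% and 10.6% of all genes. Of 30 epithelial genes, 3 were higher (10%) and 6 lower (20%). In both lists the share of rises lay near that of all genes. MAL2, an apical transport protein, fell by 1.83, from 11.66, 11.42 and 11.85 to 9.64, 9.86 and 9.93, and KRT19 fell by 0.87. MARVELD2 (tricellulin) and KRT7 rose by 1.15 and 0.56.

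Several genes tied to bone metastasis were lower. Of 28 measured, 1 was higher (3.57%) and 10 were lower (35.7%), against 12.6% and 10.6% of all genes. At least 2-fold falls made up 3 of the 10, and the median of the list was -0.24. PTHLH, also listed, had no probe set assigned to it alone. The count of 10 became 6 without control replicate 2. Besides CDH11, BMP4, a bone morphogenetic ligand, fell from 11.09, 10.94 and 11.05 to 9.69, 9.81 and 9.24 (-1.45, SE 0.13, adjusted p = 0.00025). TNC (tenascin C), a matrix protein of metastatic niches, fell from 9.52, 9.26 and 9.26 to 8.51, 8.36 and 7.69. JAG1, a Notch ligand, fell by 0.83, from 11.35, 11.16 and 11.12 to 10.63, 10.51 and 9.99. BMP7 was the member that rose, by 0.72. All shHMGA2 values of BMP4, TNC and JAG1 lay below all control values. In the lung metastasis list 7 of 20 were lower (35%) and 2 higher (10%). KYNU, a kynurenine pathway enzyme, fell by 1.32, LTBP1, which stores latent TGF-beta in the matrix, by 1.03, EREG by 0.84 (lost in 3 alternative fits) and ROBO1 rose by 0.5.

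The remaining large falls had varied roles. CYRIA, which binds RAC1 and restrains actin branching, measured 8.58, 9.08 and 9.64 in control and 6.74, 6.57 and 6.61 in shHMGA2 (-2.46, SE 0.22, adjusted p = 0.00021). AK5, an adenylate kinase, measured 8.51, 8.3 and 8.95 and then 6.33, 6.25 and 6.09 (-2.36, adjusted p = 3.8e-05). ENTPD3, a surface enzyme that cleaves ATP, fell by 2.04 and SPOCK1, a matrix proteoglycan, by 1.87. For CYRIA the spread was wider among the control arrays. The drug efflux pump ABCG2 fell by 1.66, the lysosomal protein LAPTM5 by 1.51, the surface receptor SLAMF7 by 1.52 and the EGF-family ligand NRG1 by 1.39. The luminal transcription factor SPDEF fell by 1.24, from 9.35, 8.45 and 9.04 to 7.7, 7.74 and 7.68. FSIP2 fell by 1.82, with its other probe sets at -1.06 and -0.13, so its probe sets disagreed. GALNT5, CST2, KCNQ3, KLHL4, SHANK2, CPA4, CHRM3, TMPRSS15 and ABI3BP fell by 1.25 to 1.74. CST1, a cystatin, lay outside these 25 because its groups overlapped, and is named after its values were seen. It measured 9.81, 8.88 and 10.47 in control and 7.63, 8.97 and 8.28 in shHMGA2, with a difference of -1.43.

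Interferon-response genes were lower in shHMGA2. These genes are induced by type I and type II interferons through STAT and IRF factors, and their products restrict viruses. Of 48 measured, 28 were lower and 2 higher, with a median of -0.38 against -0.03 over all genes, and 5 fell at least 2-fold. IFI44, an interferon-induced GTP-binding protein, measured 8.67, 8.26 and 8.36 in control and 7.6, 7.24 and 6.73 in shHMGA2 (-1.24, SE 0.2, adjusted p = 0.0035). SAMD9L, a restriction factor of poxviruses, measured 9.81, 9.16 and 9.38 and then 8.67, 8.07 and 8.11. IFIT2, which inhibits translation of viral RNA, measured 7.74, 7.7 and 8.23 and then 6.81, 6.86 and 6.77. In all of these the groups were apart. GBP2, a guanylate-binding protein, fell by 1.47, and its second probe set was at -0.84 with an adjusted p of 0.055. USP18, which damps interferon signalling, rose by 0.59 and the RNA-editing enzyme ADAR was the other member to rise. The mean level of the list was 8.33, 8.13 and 8.28 in the control arrays and 7.88, 7.79 and 7.75 in shHMGA2.

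Antigen-presentation genes of MHC class I were lower too. Of 13 measured, 10 were lower and 0 higher, with a median of -0.47 and differences from -0.66 to -0.07. PSMB9, an immunoproteasome subunit, measured 9.38, 8.96 and 9.22 in control and 8.67, 8.48 and 8.43 in shHMGA2. ERAP1, which trims peptides in the endoplasmic reticulum, measured 10.45, 10.43 and 10.63 and then 9.97, 9.87 and 9.71 (-0.66, SE 0.08, adjusted p = 0.0012). TAP1, a subunit of the peptide transporter, measured 9.71, 9.61 and 9.79 and then 9.33, 9.09 and 8.89. ERAP2 fell by 0.64. The groups were apart in these genes, although none fell 2-fold. MHC class II went the other way: 3 of 9 measured genes were higher and 0 lower. HLA-DPA1 rose by 1.89, from 6.73, 6.9 and 7.79 to 8.98, 8.92 and 9.19, and HLA-DPB1 and HLA-DQB1 rose by 0.86 and 0.52.

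The promoters of these genes are shown because interferon acts on many of them through the interferon-stimulated response element. The motif GAAANNGAAA was searched on both strands in RefSeq promoters of build GRCh38.p14, from 250 bases before to 50 after each gene's start. Overlapping matches were counted separately. It was found in 996 of 27305 promoters (3.65%). Of the 48 interferon-response genes 40 had a promoter in the table and 25 of these held the motif (62.5%). The share was 15 of 23 (65.2%) among members that fell and 10 of 17 (58.8%) among the others. Of 12 MHC class I promoters 8 held it (66.7%). A match describes letters and is not a binding site. The 250 bases before the start are given for the 3 interferon-response genes and the 1 MHC class I gene with the largest falls among those with a whole match there. They run 5′ to 3′ on the gene's strand, with matches to the motif or its reverse complement in capitals. IFI44 lies at chr1:78649539-78649788 (plus strand), BST2 at chr19:17405631-17405880 (minus), IFIT1 at chr10:89392373-89392622 (plus) and TAP1 at chr6:32853705-32853954 (minus).
IFI44: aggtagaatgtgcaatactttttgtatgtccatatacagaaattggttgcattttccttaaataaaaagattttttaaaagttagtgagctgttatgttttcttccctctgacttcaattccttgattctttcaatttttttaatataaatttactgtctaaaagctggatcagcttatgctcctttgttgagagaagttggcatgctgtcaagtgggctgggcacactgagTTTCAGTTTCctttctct
BST2: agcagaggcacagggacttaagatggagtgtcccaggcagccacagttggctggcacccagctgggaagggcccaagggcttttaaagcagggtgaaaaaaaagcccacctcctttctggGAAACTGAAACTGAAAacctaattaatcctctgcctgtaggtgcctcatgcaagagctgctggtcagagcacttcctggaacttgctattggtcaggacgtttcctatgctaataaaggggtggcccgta
IFIT1: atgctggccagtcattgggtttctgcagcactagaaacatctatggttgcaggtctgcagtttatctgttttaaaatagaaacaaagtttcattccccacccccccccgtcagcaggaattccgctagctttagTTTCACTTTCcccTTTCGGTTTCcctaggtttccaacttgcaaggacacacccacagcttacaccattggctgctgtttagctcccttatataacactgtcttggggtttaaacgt
TAP1: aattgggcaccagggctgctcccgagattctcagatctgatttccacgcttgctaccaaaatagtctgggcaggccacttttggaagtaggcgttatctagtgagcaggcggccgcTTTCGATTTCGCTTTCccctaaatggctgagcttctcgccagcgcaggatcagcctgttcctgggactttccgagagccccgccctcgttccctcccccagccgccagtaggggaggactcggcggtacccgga
IFI44 has 1 match and the other 3 promoters have 2 each. BST2 (tetherin), which holds budding viruses at the membrane, fell by 0.93, from 7.45, 7.62 and 8 to 7.07, 6.62 and 6.59. IFIT1, which binds uncapped viral RNA, fell by 0.71, from 7.82, 7.7 and 8.09 to 7.29, 7.19 and 6.99.

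Some secreted signals of inflammation were lower and a few were higher. Of 30 measured chemokines and interleukins, 7 were lower (23.3%) and 3 higher (10%), against 10.6% and 12.6% of all genes. The share of rises thus lay near that of all genes. In 10 of the 30 the control mean lay under the 30th percentile. CCL2, a chemokine that recruits monocytes, measured 11.34, 10.81 and 11.63 in control and 9.33, 8.84 and 8.97 in shHMGA2 (-2.21, SE 0.2, adjusted p = 0.00023). IL6 and CSF1 fell by 0.81 and 0.78. IL1A measured 5.99, 6.27 and 6.09 and then 8.3, 7.43 and 8.18 (1.85, SE 0.2, adjusted p = 0.00057), and its neighbour IL1B rose by 1.26. CXCL16 rose by 0.62. The groups did not overlap in these genes, which were picked among called members.

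Feedback genes of the ERK pathway were lower. MDA-MB-231 cells carry active RAS and RAF, and the transcription of these genes follows ERK activity. Of 18 measured, 12 were lower and 0 higher, with a median of -0.44. DUSP6, a phosphatase of ERK, measured 11.61, 11.27 and 11.36 in control and 10.69, 10.66 and 10.35 in shHMGA2 (-0.85, SE 0.11, adjusted p = 0.0015). DUSP4 fell by 0.75, the ETS factor ETV1 by 0.65 and SPRED1, an inhibitor of RAS signalling, by 0.56. SPRY2 (Sprouty-2) and ETV5, named after their values were seen, both fell by 0.55, SPRY2 from 10.88, 11 and 11 to 10.44, 10.45 and 10.34. No fall of the list reached 2-fold. LIF, PHLDA1, DUSP7, ETV4 and SPRED3 lost their calls in 1 to 6 alternative fits.

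**Figure D5:**
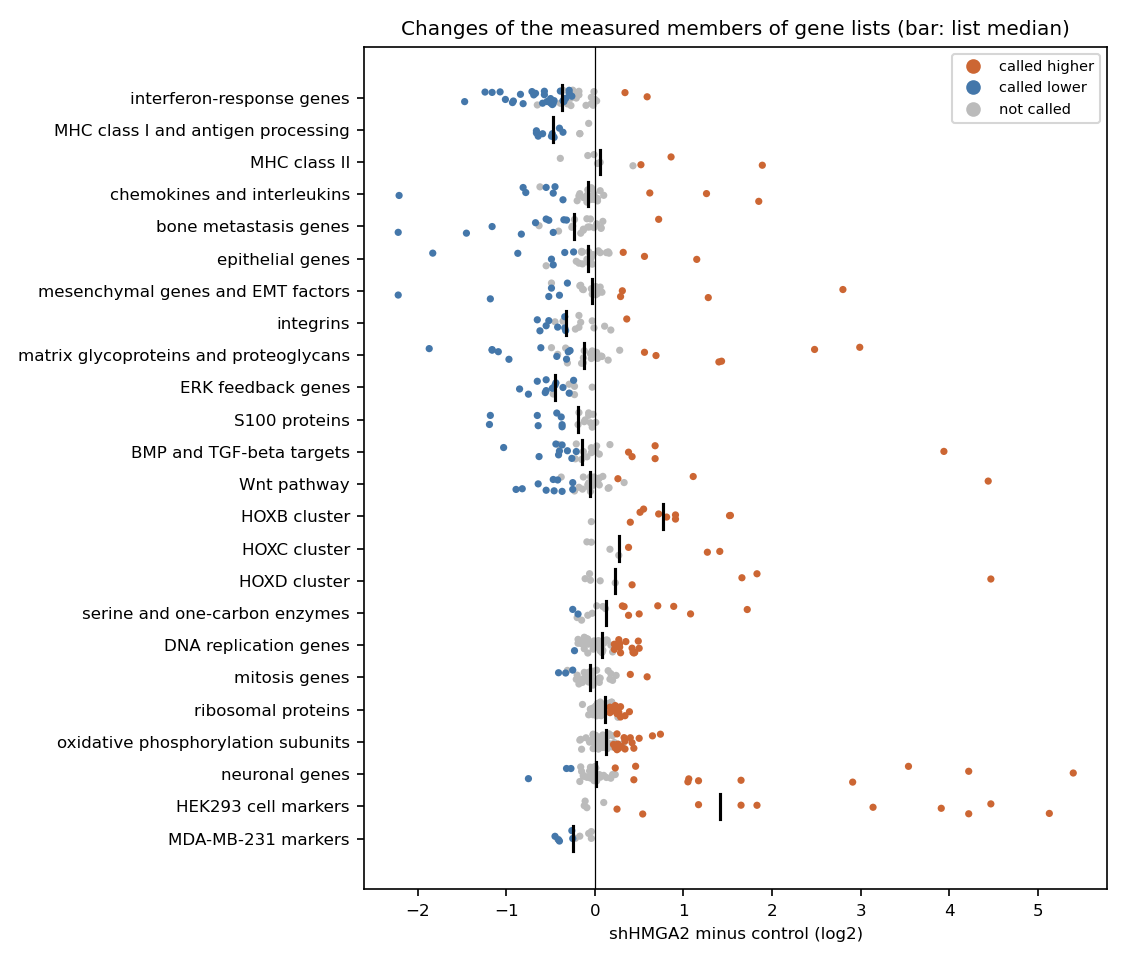
Log2 differences between shHMGA2 and control for the measured members of 24 gene lists, 1 point per gene, coloured by call, with the list median as a bar. The HEK293 markers and the HOXB cluster have medians of 1.41 and 0.76, and interferon-response, MHC class I and ERK feedback genes have medians of -0.38, -0.47 and -0.44.

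Adhesion, calcium-binding and matrix genes were read as 3 lists. Of 19 integrin subunits 8 were lower and 1 was higher, with a median of -0.33. ITGA2 fell by 0.62, from 12.31, 11.97 and 12.1 to 11.68, 11.48 and 11.37, and ITGB4 (lost in 2 alternative fits), ITGB2 and ITGB3 fell by 0.65, 0.55 and 0.52. ITGA4 was the subunit that rose, by 0.36. Of 18 S100 calcium-binding proteins 8 were lower and 0 higher. S100A3 measured 8.31, 7.68 and 8.17 in control and 6.93, 6.94 and 6.71 in shHMGA2, and S100A6 and S100A16 fell by 0.65 and 0.64. Of 36 matrix glycoproteins and proteoglycans 10 were lower and 6 higher. SRPX, TNC and EFEMP1 fell by 1.16, 1.16 and 1.09. The basement membrane gene NID1 and the heparan sulfate proteoglycan GPC3 (2.48) rose, followed by FBN2 (1.43) and VCAN (1.4). GPC3 measured 6.42, 6.47 and 6.61 in control and 8.39, 8.87 and 9.68 in shHMGA2, a wide spread among the shHMGA2 arrays.

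Proteases and collagens showed smaller falls. Of 31 metalloproteinases, ADAMs and inhibitors 8 were lower and 1 higher, and the count of 8 became 4 without shHMGA2 replicate 2. TIMP4, an inhibitor of these enzymes, fell by 1.09, MMP14 (MT1-MMP) by 0.69 and TIMP3 by 0.6. Of 33 collagens and collagen enzymes 8 were lower and 3 higher, and these became 5 and 1 without control replicate 3 or shHMGA2 replicate 3. COL6A1 fell by 0.66 and P4HA2, a prolyl hydroxylase of collagen, by 0.53, whereas COL4A5 rose by 0.4.

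Growth and developmental pathways had members moving both ways. In the BMP and TGF-beta list 5 of 26 were higher (19.2%) and 9 lower (34.6%), against 12.6% and 10.6% of all genes. ID4 and SMAD9 both rose by 0.68 besides ID2, while TGFB1 and its receptor TGFBR1 fell by 0.63 and 0.44. In the Notch list 4 of 20 were higher (20%) and 3 lower (15%), and the 4 became 2 without shHMGA2 replicate 2. HEY2, a second HEY repressor, rose by 1.14, while the ligand JAG1 and the coactivator MAML2 (-0.45) fell. In the Wnt list 3 of 38 were higher (7.89%) and 10 lower (26.3%), the latter 6 without control replicate 3 or shHMGA2 replicate 2. The receptor FZD3 rose by 1.11, and ROR1, FZD8 and LGR4 fell by 0.89, 0.82 and 0.64. In the insulin and IGF list IRS4 rose while IRS1 and PAPPA, a protease of IGF-binding proteins, fell by 0.6 and 0.83. Of 24 growth factor receptors 5 were higher (20.8%), led by KIT (0.84) and ERBB4 (0.59), and 6 were lower (25%), led by FGFR1 (-0.51).

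Several enzymes of serine and one-carbon metabolism were higher. These enzymes feed carbon from serine and glycine into folates for nucleotide synthesis. Of 17 measured 8 were higher (47.1%, against 12.6% of all genes), 2 were lower and 7 did not pass, with a median of 0.12. ALDH1L2, a mitochondrial folate enzyme, measured 6.34, 6.44 and 6.59 in control and 8.15, 7.9 and 8.47 in shHMGA2 (1.72, SE 0.13, adjusted p = 1e-04). GLDC, of the glycine cleavage system, rose by 1.08, PHGDH, the first enzyme of serine synthesis, by 0.89 and MTR (methionine synthase) by 0.71. PHGDH went from 10.27, 9.92 and 10.12 to 10.99, 10.82 and 11.16. The groups were apart in these genes. The 2 falls, of the transporters SLC1A4 and SLC1A5, were lost in 6 and 9 alternative fits.

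Cell-cycle genes differed by less than 2-fold, apart from CDKN2A and CCNG1. Of 43 replication genes 13 were higher (30.2%) and 1 lower (2.33%), against 12.6% and 10.6% of all genes. Their median was 0.08. POLA1, a DNA polymerase subunit, and MCM6, of the replicative helicase, rose by 0.5 and 0.49, MCM6 from 9.38, 9.31 and 9.28 to 9.76, 9.78 and 9.9. Of 39 mitosis genes 2 were higher (5.13%) and 3 lower (7.69%), both below the shares of all genes. CDC25A, a phosphatase that activates cyclin-dependent kinases, rose by 0.59. The 3 lower calls became 9, 1 and 0 without control replicates 1, 2 and 3, and 1 without shHMGA2 replicate 3. Among cell-cycle inhibitors and p53 targets 9 of 29 were higher (31%) and 5 lower (17.2%). CCNG1 (cyclin G1) rose by 1 on the log2 scale, RBL2 by 0.71 and SESN2 by 0.65 besides CDKN2A, while PLK3 and PLK2 fell by 0.57 and 0.5. The 5 became 2 without control replicate 3, and 3 without shHMGA2 replicate 1, 2 or 3.

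Of 69 measured subunits of oxidative phosphorylation 17 were higher (24.6%, against 12.6% of all genes) and 0 lower, with a median of 0.12. No member differed 2-fold, and 52 did not pass. ATP5PO, of the ATP synthase, measured 9.29, 9.46 and 9.42 in control and 10.13, 10.04 and 10.22 in shHMGA2, and NDUFA1 and NDUFB9 of complex I rose by 0.65 and 0.5. Of 58 ribosomal protein genes 16 were higher and 0 lower, with a median of 0.11. This count became 9 with equal array medians, and 6, 8, 6 and 5 without control replicate 1, control replicate 3, shHMGA2 replicate 2 and shHMGA2 replicate 3. Of 18 cholesterol synthesis genes 3 were higher, led by SQLE (1.04), and these included 2 calls lost in 4 or 6 alternative fits. The 3 became 1 without control replicate 2 or shHMGA2 replicate 3. ACSL5, an acyl-CoA synthetase, fell by 0.64.

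Small RNAs were read through the probe sets assigned to their genes, and mature and precursor forms were not told apart. Of 77 RNAs of the H/ACA class, in nucleoli or Cajal bodies, 23 were higher and 1 lower, a count of 14 without control replicate 2 and 15 without shHMGA2 replicate 3. SNORA69 rose by 1.2 and SNORA14B by 0.9. Of 115 C/D box small nucleolar RNAs 16 were higher (13.9%, near the 12.6% of all genes) and 2 lower, with 9 higher without shHMGA2 replicate 2, and 61 of the 115 had control means under the 30th percentile.

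Of 173 microRNA genes 3 were higher (1.73%) and 10 lower (5.78%), both below the 12.6% and 10.6% of all genes. In control 103 of the 173 lay under the 30th percentile. The 10 became 3, 5, 5 and 5 without control replicate 1, control replicate 2, shHMGA2 replicate 2 and shHMGA2 replicate 3, and 17 with equal array medians. The 13 called microRNA genes all matched RefSeq, build GRCh38.p14. The mature forms of 5 are given because they share a seed (bases 2 to 8, in capitals) or, in MIR218-1, hold the largest change.
hsa-miR-218-5p: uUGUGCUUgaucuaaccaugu
hsa-let-7f-5p: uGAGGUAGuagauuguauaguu
hsa-let-7a-5p: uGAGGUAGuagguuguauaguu
hsa-miR-221-3p: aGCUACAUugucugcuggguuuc
hsa-miR-222-3p: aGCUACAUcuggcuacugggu
MIR218-1 measured 6.99, 6.86 and 6.53 in control and 8.24, 8.39 and 8.29 in shHMGA2 (1.51, SE 0.11, adjusted p = 8.2e-05). Its host gene SLIT2, a guidance ligand named after its value was seen, rose by 0.92. MIRLET7F1 rose by 0.48 and MIRLET7A2 fell by 0.39 (lost in 5 alternative fits), so these genes of 1 seed, GAGGUAG, moved in opposite directions. MIR221 and MIR222, which share the seed GCUACAU, fell by 0.56 and 0.39, calls lost in 2 and 4 alternative fits.

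The share of genes that rose differed between chromosomes. On chromosome X 27 of 694 genes (3.89%) rose at least 2-fold, on chromosome 6 the share was 2.35% and on chromosome 13 2.21%, against 1.12% over all genes. Of the 205 rises with a place in the RefSeq gene order 22 (10.7%) lay next to another rise, among the measured genes. They included CDH2 with DSC3, IL1A with IL1B, NEFM with NEFL, LIN28B with POPDC1, HOXD10 with HOXD11, and the histone genes H4C4, H2BC7 and H4C5. Of the 64 falls 4 lay next to another, S100A4 with S100A3 and CST1 with CST2. These are counts with no test.

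Levels in the Tet1 and HOXA9 arrays are set beside TET1, the 4 largest rises and the 5 largest falls. The titles and source names of those arrays give different subline numbers, so their subline is in doubt. Those arrays correlated with the 6 control and shHMGA2 arrays at 0.9455 to 0.9657 over all probe sets. Whether all were normalized in 1 run is not given. No difference and no nearness to either group is therefore drawn across the sets. For TET1 the Tet1 and HOXA9 means were 7.07 and 7.3. Among the rises they were 5.76 and 5.63 for NETO2, 6.09 and 6.04 for IRS4, 6.89 and 6.93 for CA2, and 6.37 and 6.26 for HOXD10. Among the falls they were 8.03 and 7.9 for CYRIA, 6.43 and 7.46 for AK5, 10.4 and 10.39 for CDH11, 8.47 and 8.34 for CCL2, and 9.23 and 9.08 for ENTPD3.

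Across the 476 genes called in at least 1 list, TET1 kept its call in every alternative fit. Of the other 475 genes 290 kept theirs wherever they were tested, and 185 lost it in at least 1 fit. The 50 genes with the largest changes kept theirs in every fit.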

How the data were processed

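Total RNA was profiled on Affymetrix Human Gene 1.0 ST arrays. The deposited values are log2 expression of 33297 probe sets, made by the authors with RMA (R 2.11), as the submitters' processing notes list. The RMA method corrects background, quantile-normalizes and summarises probes. Which arrays were normalized in 1 run is not given in these sources. The medians of the 6 arrays were 7.21 to 7.28. All 12 columns matched 1 sample each (0 columns of no sample). Precision is limited by having 3 arrays a group.

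The annotation gives 19460 probe sets 1 gene symbol, 1754 several and 12083 none. Where a gene had several probe sets (769 genes), the brightest on average was taken, leaving 18417 genes. Each gene was fitted by limma 3.58.1 (R 4.3.3; functions lmFit and eBayes; two-sided; residual degrees of freedom 4, prior 4.39) on the 3 control and 3 shHMGA2 arrays. A gene was called when its p, adjusted by Benjamini-Hochberg across all genes, was under 0.05, while 6478 genes had an unadjusted p under 0.05. The HMGA2 probe set was fitted among all probe sets. The code was tested on simulated data.

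The genes and the 64 lists were chosen with earlier results of these data known, and list counts carry no test of their own. List counts are to be read beside the 12.6% of all genes called higher and the 10.6% called lower. Named genes were the 25 largest rises and 25 largest falls among called genes with no overlap of the groups and the higher mean above the 30th percentile. Symbols of small RNAs and unnamed loci were left out of these 50. Up to 4 rising and 4 falling members of each list were added, with the uncalled members of lists of 12 or fewer and those of the lists on DNA methylation, 9p21, HEK293 and MDA-MB-231. The 14 alternatives were a fit on all independent arrays, the replicate number as a block, equal array medians, a new quantile normalization, a filter on dim genes, the mean of a gene's probe sets, an intensity trend with a robust prior, array weights, and leaving out each array. In the fit on all independent arrays, Tet1 and HOXA9 replicate 3 were dropped because each equalled the mean of replicates 1 and 2 within 1e-06.

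The replicate numbers were not treated as pairs, because deviations of arrays with the same number correlated at 0.164, 0.14 and 0.002.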

Additional observations from a re-analysis of the deposited data

How the results depend on the processing

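The count of called genes was 4238 to 4868 in the 8 alternatives that left out no array of the comparison and 3037 to 3834 when 1 array was left out. Genes called in both an alternative and the reported fit had the same sign. Called higher ranged from 1763 to 2018 and called lower from 1266 to 1816 on leaving out 1 array. Genes at least 2-fold different numbered 229 to 311, 176 to 220 of them higher and 53 to 92 lower. The TET1 difference stayed called, at 2.25 to 2.54. The HMGA2 probe set ranged from -0.86 to -0.59 and did not pass without control replicate 2 (-0.71). Called list genes ranged from 355 to 441 when 1 array was left out. The share of rises farthest from control in shHMGA2 replicate 3 was 90.8% to 93.0%. With the replicate number as a block 4238 genes were called, 3842 of them shared, and 271 were at least 2-fold different. Under this block the list of AHR and NRF2 targets had 11 lower members in place of 6. That count was 10 in the fit on all independent arrays, and 1 and 3 without shHMGA2 replicates 2 and 3. Of 3 control arrays 2 correlated best with the shHMGA2 array of their own number, and no pairing is named in the labels.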

Other observations

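Markers of blood, endothelial, fibroblast, keratinocyte, hepatocyte and muscle cells were not called higher. These lists are short and, like the HEK293 list, were written with earlier results of these data known. The neuronal genes described above did hold rises, 11 of 40. Of 4 blood, 4 keratinocyte and 4 muscle markers measured, 0 were called. Of 5 endothelial markers PECAM1 was lower (-0.53), of 6 fibroblast markers PDGFRB (-0.37) and of 4 hepatocyte markers SERPINA1 (-0.37), with calls lost in 3, 2 and 5 alternative fits. The mean level of the blood markers was 6 to 6.04 in control and 5.92 to 5.97 in shHMGA2, near the dim end of the arrays.

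Several lists not described above had members that passed. Of 25 polycomb genes 4 were higher (16%), led by CBX6 (0.42) and MTF2 (0.39), and 2 were lower, PHC2 (-0.48) and PHF1 (-0.43). These shares, with 8% lower, lie near the 12.6% and 10.6% of all genes. Of 24 ABC transporters ABCG2 was lower (4.17%) and 4 were higher (16.7%), against 10.6% and 12.6% of all genes. The rises were led by ABCB1 (0.58), another drug efflux pump. The 4 became 2 without shHMGA2 replicate 3. In the stress lists, SESN2 and ASNS, targets of ATF4, rose by 0.65 and 0.5, and EDEM1 and DDIT3 (lost in 2 alternative fits) fell by 0.43 and 0.31. Of 24 hypoxia targets STC2 rose by 1.22 and KDM3A by 0.59. Another 5 hypoxia targets were lower, a count of 2 to 10 on leaving out 1 array. It was 3, 10 and 2 without control replicates 1, 2 and 3, and 2 and 3 without shHMGA2 replicates 2 and 3. Among histone genes outside the neighbours H4C4, H2BC7 and H4C5, H2BC1 fell by 1.09, from 7.52, 7.94 and 7.9 to 6.7, 6.72 and 6.65. Of 13 measured genes often used as steady references HPRT1 (0.45) and POLR2A (0.3) were higher and B2M (-0.36) was lower, B2M with a call lost in 4 alternative fits.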
